A study of Mus musculus with 4 samples.

Results

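The genes described here make and load the peptides that class I molecules display: the peptide transporter subunits Tap1 and Tap2, the loading factors Tapbp and Pdia3, the peptide-trimming enzyme Erap1, the inducible proteasome subunits Psmb8, Psmb9 and Psmb10, and Nlrc5, a transcriptional activator of class I genes. All 9 were found by symbol in the deposited gene lists, out of 29835 genes. They were measured by single-cell RNA sequencing of ascites from C57BL/6 mice carrying ID8-Trp53-/- cells, a Trp53-deficient mouse ovarian surface epithelial line, with 1 library of pooled animals per treatment. All animals had 7 days of engraftment before treatment, which lasted until ascites reached about 3 mL. Control animals were given DMSO vehicle with isotype IgG. The BTYNB group received BTYNB, an inhibitor of the RNA-binding protein Igf2bp1, at 50 mg/kg per the labels, with the control IgG. The anti-PD-1 group received an antibody against PD-1 with the DMSO vehicle. The combination group received BTYNB and the antibody against PD-1. Antibodies were at 100 ng per dose per the labels. The amounts in the study's methods differ from those labels, and the difference was not settled here. Because each treatment is 1 library, there is no replicate check of any difference, no test was made, and the 95% intervals given cover counting error only.

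Cells were sorted into gates by their unique molecular identifiers (UMIs, counted transcripts). A tumour cell had at least 5 UMIs of Krt7, Krt8, Krt18, Krt19 and Wt1 together and 0 of Ptprc. A myeloid cell had at least 3 of Lyz2 and Csf1r and at most 2 keratin UMIs, a T cell at least 2 of Cd3d, Cd3e and Cd3g, and a B cell at least 3 of Cd79a and Cd79b. Tumour-gated cells numbered 7114 in control, 3606 under BTYNB, 10923 under anti-PD-1 and 4369 in the combination, and the myeloid gate 292, 3134, 384 and 1258 in the same order. The T gate held 2481 BTYNB and 158 combination cells and the B gate 3475 and 286. In control and anti-PD-1 these lymphocyte gates held between 22 and 39 cells, under the minimum of 50, and were not used. Markers that took no part in the gates set the tumour and myeloid gates apart. The 6 epithelial markers Msln, Upk3b, Upk1b, Muc16, Lrrn4 and Bcam summed to 1070 to 1390 CPM (UMIs per 1000000 UMIs of the gate) in tumour cells. In myeloid cells they summed to 39.7 to 179 CPM. They are also found in mesothelial cells, so they do not tell ID8 cells from host mesothelium. The myeloid marker Cd68 was at 529 to 672 CPM in myeloid cells and 7.44 to 14.5 CPM in tumour cells. Adgre1, Cd14, Fcer1g, Tyrobp and C1qa were likewise higher in myeloid cells of each library. The lymphocyte gates were less pure. Of the combination B cells, 111 of 286 also met the tumour gate, against 161 of 3475 in BTYNB, and the epithelial markers reached 1050 CPM in combination B cells. Depth also differed: the median T cell had 2149 UMIs in BTYNB and 7500 in combination, and no combination cell lay under 5115 UMIs.

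Class I molecules carry short peptides cut from cytosolic proteins by the proteasome. Interferon-gamma swaps the constitutive catalytic subunits Psmb5, Psmb6 and Psmb7 for Psmb8, Psmb9 and Psmb10, which gives the immunoproteasome. Tap1 and Tap2 pump the peptides into the endoplasmic reticulum, Erap1 shortens them, and Tapbp (tapasin) with Pdia3 (ERp57) helps class I molecules take them up. Tumour cells often lower these genes, and interferon from T cells raises them.

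Tap1, Tap2, Psmb8 and Psmb9 are neighbours within the class II region of chromosome 17, in the order Psmb9, Tap1, Psmb8 and Tap2. Promoter windows of 300 bases, from 250 before to 50 after the gene start (RefSeq, GRCm38.p6), were at hand for 7 of the 9 genes and not for Tap2 or Nlrc5. The submitters' processing notes name build GRCm39, so these windows show sequence only and no reads were placed on them. Psmb9 and Tap1 start 226 bases apart on opposite strands and share 275 bases of their windows, so Tap1 is shown for both. Erap1 and Psmb8 are shown because each holds an interferon motif. Capitals mark the interferon-stimulated response element core (a pair of GAAA runs with 2 letters between them) in Erap1, the gamma-activated site TTCNNNGAA in Psmb8, and the CCAAT box (searched as ATTGG) in Tap1. Both strands were searched, and the first and the second motif can share letters.
Tap1, chr17:34187306-34187605, plus strand: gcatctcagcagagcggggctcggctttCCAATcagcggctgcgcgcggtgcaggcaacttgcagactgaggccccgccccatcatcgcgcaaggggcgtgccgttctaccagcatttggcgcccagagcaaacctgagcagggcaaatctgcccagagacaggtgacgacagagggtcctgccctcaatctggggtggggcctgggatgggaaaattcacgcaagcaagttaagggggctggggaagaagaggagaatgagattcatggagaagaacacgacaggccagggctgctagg
Psmb8, chr17:34197945-34198244, plus strand: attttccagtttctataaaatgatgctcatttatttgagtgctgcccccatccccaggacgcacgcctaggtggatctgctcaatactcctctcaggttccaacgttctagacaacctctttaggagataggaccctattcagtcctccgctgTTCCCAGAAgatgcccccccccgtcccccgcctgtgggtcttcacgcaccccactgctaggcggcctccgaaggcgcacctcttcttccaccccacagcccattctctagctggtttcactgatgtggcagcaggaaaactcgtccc
Erap1, chr13:74639603-74639902, plus strand: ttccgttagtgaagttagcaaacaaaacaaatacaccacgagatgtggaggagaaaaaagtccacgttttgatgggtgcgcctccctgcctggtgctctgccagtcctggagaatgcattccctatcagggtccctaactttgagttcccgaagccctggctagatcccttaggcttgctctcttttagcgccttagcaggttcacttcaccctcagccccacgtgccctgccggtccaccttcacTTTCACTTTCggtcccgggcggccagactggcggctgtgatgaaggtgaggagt

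The response element core was found in 1 of the 7 windows, that of Erap1, where it begins at position -4 from the gene start. It was present in 3.44% of all 32851 windows. The gamma-activated site was in the Psmb8 window alone, at position -97, and in 8.3% of all windows. ATTGG was found on either strand in the windows of Tap1, Psmb9, Tapbp and Pdia3 and in 37.4% of all windows.

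Nlrc5 and Erap1 had the largest myeloid-to-tumour ratios of the 9 members in every library. Nlrc5 stood at 20.4 CPM in control, 23.6 under BTYNB, 22.4 under anti-PD-1 and 32.4 in the combination tumour cells. In myeloid cells it reached 61.7, 98.5, 58.0 and 89.1 CPM in the same order. The log2 ratio of myeloid to tumour CPM ran from 1.34 (anti-PD-1) to 2.01 (BTYNB), so over the full gates Nlrc5 was more than 2-fold higher in myeloid cells of all 4 libraries. In cells of 5115 UMIs or more, which left 67 anti-PD-1 myeloid cells, Nlrc5 was under 2-fold higher in that library, at 0.883 (0.103 to 1.618). In T cells of BTYNB, whose depth was low, it was at 158.6 CPM (95% interval 149.8 to 167.8). It was at 192.2 CPM in those of 1 gate only with at most 2 keratin UMIs, and at 78.1 CPM in the 241 of 5115 UMIs or more. Myeloid cells of that depth held 86.0 CPM in BTYNB and 89.1 CPM in the combination. Over BTYNB tumour cells of that depth, the log2 ratios of BTYNB T cells (1.698, 1.522 to 1.952) and myeloid cells (1.835, 1.755 to 2.002) had overlapping intervals. After thinning to 1000 UMIs per cell, 16.9% of BTYNB T cells and 2.56% of tumour cells in that library kept a Nlrc5 UMI. Before thinning the shares were 34.7% and 27.1%, at median depths of 2149 and 15221 UMIs.

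Erap1, the trimming enzyme, was at 74.5 CPM in control, 72.8 under BTYNB, 65.0 under anti-PD-1 and 59.5 in the combination myeloid cells, and at 36.4, 32.6, 30.2 and 33.5 CPM in tumour cells. The log2 ratio ran from 0.81 to 1.13 in the 4 libraries. T cells of BTYNB, at 79.8 CPM, did not differ from control or BTYNB myeloid cells beyond the counting intervals.

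Tapbp had the opposite pattern. Tumour cells held 433 CPM in control, 548 under BTYNB, 571 under anti-PD-1 and 515 in the combination, and myeloid cells 274, 343, 467 and 335. Tapbp was lower in myeloid than in tumour cells in all 4 libraries, with log2 ratios from -0.67 (BTYNB) to -0.29 (anti-PD-1). T cells (log2 ratio -0.68) and B cells (-0.50) of BTYNB were lower than tumour cells as well.

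Among the inducible subunits, Psmb8 and Psmb10 were higher in myeloid than in tumour cells in every library and Psmb9 was not. Psmb8, which carries the chymotrypsin-like activity, was at 374 CPM in control, 485 under BTYNB, 417 under anti-PD-1 and 461 in the combination myeloid cells against 246, 243, 291 and 298 in tumour cells. Psmb10 was at 103, 183, 153 and 141 CPM in myeloid cells and 72.6, 89.3, 90.7 and 103 in tumour cells. Psmb9 was at 92.6, 143, 124 and 140 CPM in myeloid cells and 121, 119, 166 and 150 in tumour cells. Its myeloid level was above the tumour level in BTYNB alone, with a log2 ratio of 0.265, and below it in control (-0.38), anti-PD-1 (-0.43) and combination (-0.10). The subunits of the immunoproteasome therefore did not share 1 order across gates.

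Tap1 was at 192 CPM in control, 304 under BTYNB, 243 under anti-PD-1 and 312 in the combination myeloid cells and at 125, 143, 186 and 201 in tumour cells. Tap2 was at 44.2, 68.1, 70.2 and 56.9 CPM in myeloid and at 35.7, 44.5, 54.5 and 45.7 in tumour cells. Both transporter subunits were higher in myeloid cells of all 4 libraries, by log2 ratios of 0.39 to 1.08 for Tap1 and 0.30 to 0.60 for Tap2, where the control interval (-0.04 to 0.64) includes 0. Pdia3, a disulfide isomerase used by many secretory proteins, had log2 ratios of -0.07 to 0.21: tumour cells held 734 to 852 CPM and myeloid cells 754 to 860 CPM. In T cells of BTYNB it was at 480.8 CPM, and at 740 CPM in those of 5115 UMIs or more.

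**Figure D1:**
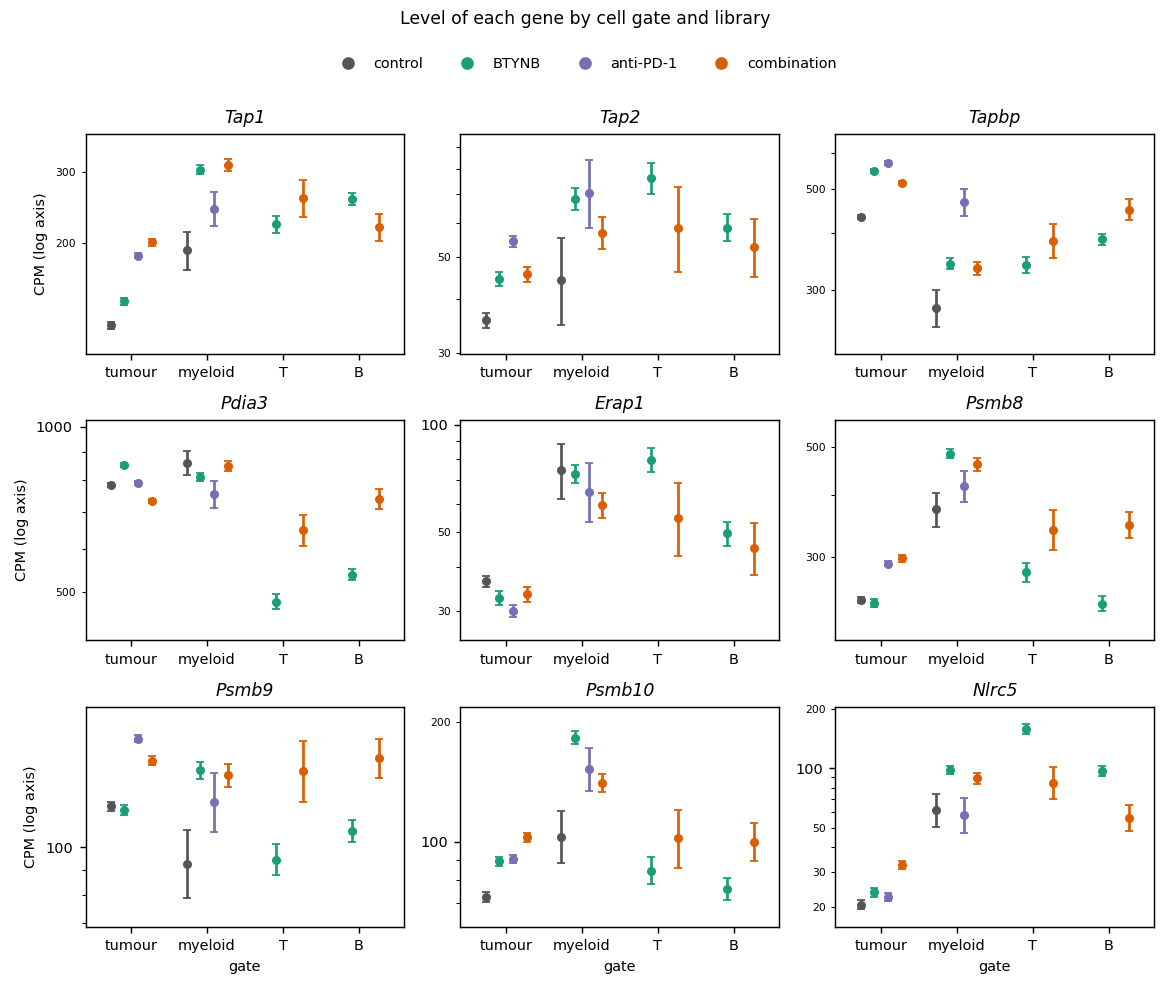
Level of each gene in CPM on a log axis, by gate (tumour, myeloid, T and B) and library (colour), with 95% Poisson intervals that cover counting error only. The myeloid points lie above the tumour points of the same library for Tap1, Tap2, Erap1, Psmb8, Psmb10 and Nlrc5 and below them for Tapbp. The Nlrc5 point of BTYNB T cells is at 158.6 CPM. Not plotted are its levels in cells of 5115 UMIs or more (78.1 CPM) and in cells of 1 gate only (192.2 CPM).

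In tumour cells, transporter and tapasin genes were higher under anti-PD-1 than in control. Differences are given as log2 ratios after adding 1 CPM to each level, and a gene is called higher or lower from a log2 ratio of 0.322 in either direction. Tap2 had a ratio of 0.60 (0.54 to 0.68), Tap1 of 0.57 (0.54 to 0.61), Psmb9 of 0.45 (0.42 to 0.50) and Tapbp of 0.40 (0.38 to 0.42). These 4 of the 9 members were called higher, where 12.5% of 13094 genes were, and 0 were called lower, where 16.0% of genes were. Psmb10 (0.318) was just outside the limit, Psmb8 was at 0.24, Nlrc5 at 0.13 and Pdia3 at 0.01 with an interval that includes 0. Erap1 was at -0.26 (-0.35 to -0.19). The median over the members was 0.318 against -0.066 over all genes.

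For BTYNB against control, Tapbp was at 0.34 (0.32 to 0.36) and was the 1 member called higher, where 13.5% of 12705 genes were called higher and 12.0% lower. That call was lost as a mean over cells (0.298), without the 5% of cells with most UMIs (0.310) and in cells without a UMI of Cd24a (0.316). Tap2 (0.31) and Psmb10 (0.30) were just under the limit, Nlrc5 was at 0.20, Tap1 at 0.19 and Pdia3 at 0.12. Psmb8 (-0.02) and Psmb9 (-0.03) had intervals that include 0, and Erap1 was at -0.15 (-0.24 to -0.07). The median over the members was 0.19 against -0.001 over all genes.

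Against BTYNB, the combination had higher Tap1 (0.48, 0.45 to 0.53), Nlrc5 (0.44, 0.36 to 0.56) and Psmb9 (0.33, 0.29 to 0.38). These 3 of 9 members were called higher in a comparison where 3.43% of 12418 genes were called higher and 1.79% lower, the smallest background of the tumour comparisons. Psmb8 was at 0.30, Psmb10 at 0.20, and Pdia3 at -0.22. Tapbp was at -0.09, and Tap2 at 0.03 with an interval that includes 0. Against anti-PD-1, the combination had higher Nlrc5 (0.52, 0.44 to 0.63), the 1 member called, where 17.0% of 13010 genes were called higher and 12.2% lower. Tap2 was then at -0.25, Psmb9 and Tapbp at -0.15, and Psmb8 at 0.03. In cells without a UMI of Cd24a, Nlrc5 was at 0.300 (0.202 to 0.420) in this comparison and no longer called.

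Set side by side in the 2 x 2 layout, with comparisons that share libraries, Tap1 had ratios of 0.57 for anti-PD-1 without BTYNB and 0.48 with it. In cells without a UMI of Cd24a its ratios were 0.748 and 0.559. Over all tumour cells Tap2 had 0.60 and 0.03, and Tapbp 0.40 and -0.09. Nlrc5 had the reverse order, 0.13 without BTYNB and 0.44 with it, but 0.385 and 0.473 in cells without a UMI of Cd24a, and the second value was 0.317 as a mean over cells. The difference of these differences was not tested. In levels, Tap2 and Tapbp were highest in the anti-PD-1 library (54.5 and 571 CPM), while Tap1 and Nlrc5 were highest in the combination library (201 and 32.4 CPM). The 6 pan-leukocyte markers in tumour cells (Laptm5, Coro1a, Cd53, Cd52, Arhgdib and Ptprc, which the gate holds at 0) summed to 44.7 CPM in control, 70.8 under BTYNB, 148 under anti-PD-1 and 88.0 in the combination. Cd52 gave 99.9 of the 148 CPM, and without it the sums were 34.3, 49.2, 47.7 and 58.9 CPM in the same order. The 8 myeloid markers in tumour cells summed to 39.7, 51.4, 94.1 and 109 CPM. The part of these transcripts in the ratios was not tested.

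**Figure D2:**
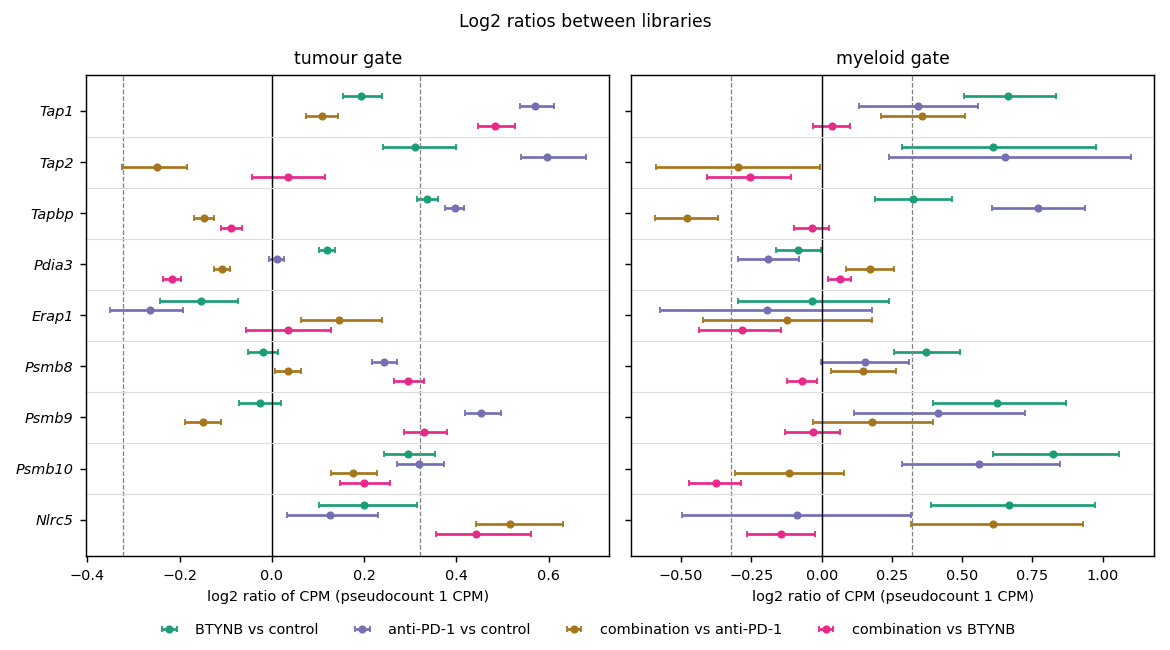
Log2 ratios of CPM of each gene between libraries in tumour cells (left) and myeloid cells (right), with 95% counting intervals, a solid line at 0 and dashed lines at 0.322 in either direction. In tumour cells Tap1, Tap2, Tapbp and Psmb9 pass the dashed line for anti-PD-1 against control, and in myeloid cells 7 of 9 genes pass it for BTYNB against control.

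Other genes of the pathway did not share 1 direction. Of 34 such genes, chosen with earlier results of these data known, 2 were called higher and 3 lower in tumour cells for BTYNB against control, and 4 higher and 5 lower for anti-PD-1 against control. Each of these shares is below that of all genes in the comparison (13.5% and 12.0% for the former, 12.5% and 16.0% for the latter), so the counts are given as a description. H2-K1, a class I heavy chain, had log2 ratios of 0.45 and 0.41 in these comparisons, and the interferon-responsive factor Irf1 had 0.44 and 0.40. Tapbpl, a tapasin relative, was at 0.37 for anti-PD-1 against control, and Rfxank, a partner of Nlrc5 at class I promoters, at -0.42 from levels of 5.53 and 7.74 CPM. B2m, the light chain, stayed within -0.09 and 0.29 in the 4 comparisons. The median over the 34 genes was -0.09 and -0.07 in these comparisons. Those called lower were mostly proteasome genes. They included Psmb7 (-0.33 and -0.47), Psme2 (-0.65 and -0.71), a subunit of the proteasome activator whose reads could be shared with its near-identical copy Psme2b, Psma1 (-0.38 for BTYNB), and Psmb6 (-0.39) and Psmb3 (-0.37) for anti-PD-1. Against anti-PD-1, the combination had higher Psme2 (0.34) and Psmb3 (0.38).

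The inducible subunits were therefore set against the constitutive subunit that each replaces. In tumour cells the UMIs of Psmb8, Psmb9 and Psmb10 together, per UMI of Psmb5, Psmb6 and Psmb7, numbered 1.17 (1.15 to 1.19) in control, 1.46 (1.43 to 1.49) under BTYNB, 1.93 (1.90 to 1.96) under anti-PD-1 and 1.73 (1.69 to 1.76) in the combination. The 4 intervals do not overlap. Psmb9 per Psmb6 was 1.08, 1.31, 1.95 and 1.53 in that order, and Psmb8 per Psmb5 was 3.28, 3.58, 4.68 and 3.97. Psmb10 per Psmb7 was 0.383, 0.592, 0.662 and 0.702, so here the combination was highest. For the summed ratio in BTYNB, the numerator was close to control (451 against 440 CPM) and the difference lay in the constitutive subunits. Psmb10 alone was higher there, at 89.3 against 72.6 CPM. In anti-PD-1 the summed numerator was at 549 CPM, and Psmb6 and Psmb7 were lower as well.

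In myeloid cells the same ratio was 2.21 (1.97 to 2.48) in control, 3.80 (3.66 to 3.95) under BTYNB, 3.22 (2.86 to 3.63) under anti-PD-1 and 3.85 (3.66 to 4.05) in the combination. It was above the tumour ratio of the same library in all 4 libraries. In T cells it was 2.76 in BTYNB and 2.38 in combination, and in B cells 2.04 and 2.32, with intervals that overlap between these libraries in each gate.

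**Figure D3:**
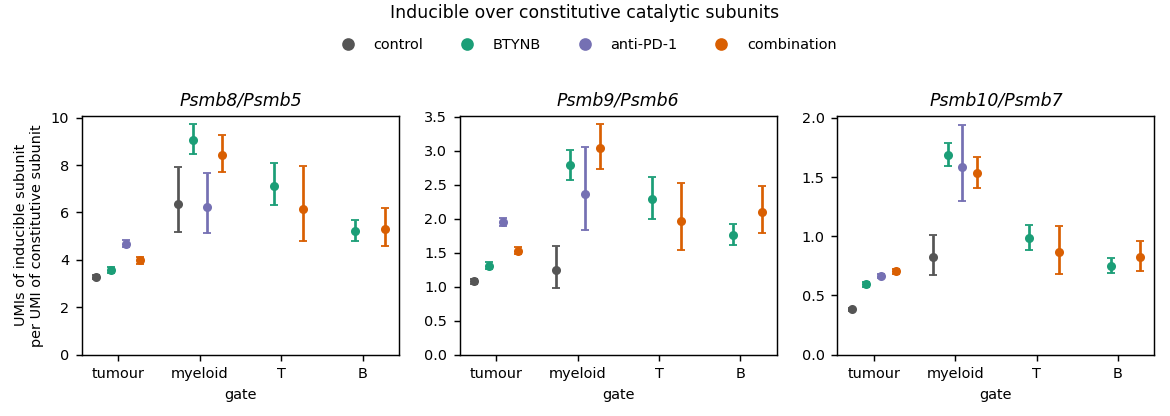
UMIs of each inducible catalytic subunit per UMI of the constitutive subunit it replaces, by gate and library, with 95% counting intervals. In tumour cells all 3 ratios are lowest in control, and the highest is anti-PD-1 for Psmb8/Psmb5 (4.68) and Psmb9/Psmb6 (1.95) and combination for Psmb10/Psmb7 (0.702).

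Within the anti-PD-1 tumour cells the members were not evenly spread. Cells with at least 3 UMIs of Cd24a, a surface sialoglycoprotein of epithelial cells, numbered 2024 of 10923 (18.5%), against 4.19% of tumour cells in control, 4.1% in BTYNB and 3.41% in combination. Tapbp was at 273 CPM in these cells and 681 CPM in anti-PD-1 tumour cells with 0 Cd24a UMIs, a log2 ratio of -1.32 (-1.36 to -1.28). Nlrc5 was at -1.28, Psmb8 at -1.16, Tap2 at -1.0, Erap1 at -0.93, Psmb9 at -0.86, Tap1 at -0.79 and Psmb10 at -0.76. These 8 members were called lower, where 41.6% of 12040 genes were, and Pdia3, at 0.49, was called higher, where 18.1% were. The median over the members was -0.93 against -0.20 over all genes. The class I genes H2-K1 (-1.29) and B2m (-0.67) and 7 interferon-inducible GTPase genes (Igtp, Irgm1, Irgm2, Iigp1, Gbp2, Gbp3 and Gbp7, summed, -1.93) had the same direction, and Psmb5, Psmb6 and Psmb7 summed were not called (-0.05).

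The other libraries had no such pattern. Psmb8 was higher in tumour cells with Cd24a than in those without it in control (0.75), BTYNB (0.74) and combination (0.54), and Psmb10 was likewise higher (0.51, 0.50 and 0.38). For Nlrc5 and Erap1 the intervals included 0 in these 3 libraries, where Cd24a cells numbered 298, 148 and 149. Cells with Cd24a were deeper (median 9323.5 against 6429.5 UMIs in anti-PD-1), and between 8000 and 12000 UMIs the ratios in anti-PD-1 were -1.30 for Psmb8, -1.28 for Tapbp and -1.02 for Nlrc5. The medians were 14000.5 against 9307 UMIs in control, 28503 against 14123 in BTYNB and 18012 against 11011.5 in combination. At matched depth control held 87 Cd24a cells, with a median over the members of 0.221. BTYNB and combination were not compared at that depth, so their values are unmatched. Over the tumour cells with 0 Cd24a UMIs alone, a comparison added after the data had been seen, anti-PD-1 against control gave 7 members called higher: Tap2 at 0.84, Tap1 at 0.75, Psmb9 at 0.68, Tapbp at 0.67, Psmb8 at 0.61, Psmb10 at 0.52 and Nlrc5 at 0.39. In that comparison 11.2% of 12277 genes were called higher and 11.8% lower. Combination against anti-PD-1 then gave Tap2 at -0.48, Tapbp at -0.42 and Psmb9 at -0.38, called lower where 7.56% of 12122 genes were and 8.87% were called higher, so that anti-PD-1 alone had the highest level of these genes among cells without Cd24a.

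**Figure D4:**
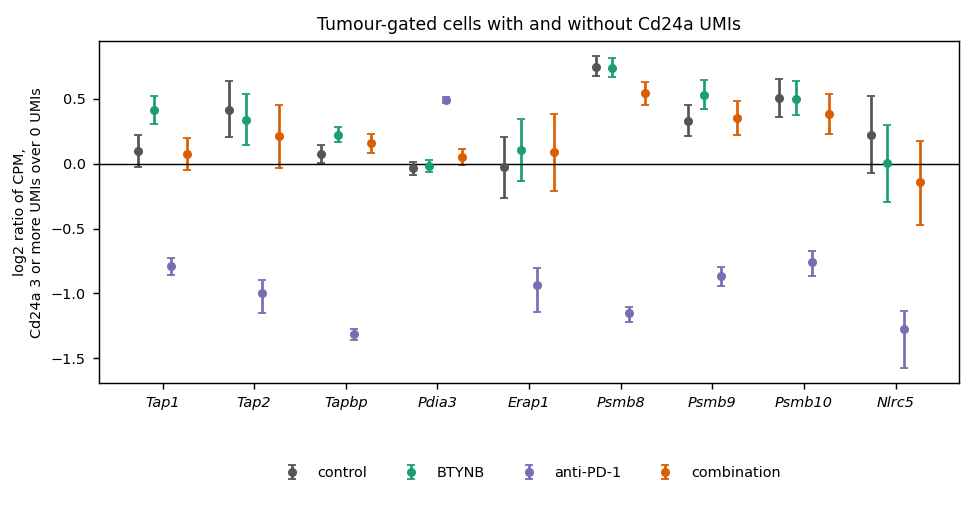
Log2 ratio of CPM between tumour cells with at least 3 UMIs of Cd24a and tumour cells with 0, for each gene and library, with 95% counting intervals. In anti-PD-1 8 genes lie between -1.32 and -0.76 and Pdia3 at 0.49, whereas in the other libraries Psmb8, Psmb9 and Psmb10 lie above 0. The cells plotted were not matched for depth.

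Most members were higher in tumour cells with more GTPase UMIs at matched depth, though in BTYNB most intervals of the bins overlap. Between 8000 and 12000 UMIs, Psmb8 in anti-PD-1 was at 94.5 CPM in the 352 cells without a GTPase UMI, 181 CPM in the 731 with 1 to 2 and 347 CPM in the 2456 with 3 or more. Tapbp was at 193, 300 and 631 CPM, Tap1 at 80.3, 116 and 211, and Nlrc5 at 5.32, 11.2 and 23.1. Pdia3 had the reverse order in anti-PD-1, at 938, 925 and 765 CPM. In control the same steps gave 170, 186 and 256 CPM for Psmb8, 406, 415 and 465 for Tapbp and 700, 726 and 805 for Pdia3, which was there highest in the last bin. The control cells without a GTPase UMI, 151 in number, thus had higher Psmb8 and Tapbp than those of anti-PD-1. Erap1 in control was at 30.7 CPM in cells without a GTPase UMI and 36.8 CPM in those with 3 or more, with overlapping intervals. In the other libraries under 50 cells had 0 GTPase UMIs. With 1 to 2 and with 3 or more, Psmb8 was at 226 and 293 CPM in combination and at 157 and 195 CPM in BTYNB, and Pdia3 at 718 and 725 CPM and at 738 and 771 CPM, with overlapping intervals for Pdia3 in each library. The Psmb8 intervals in BTYNB (129.8 to 187.2 and 178.7 to 212.4 CPM) overlap too. So do those of Tap1, Tap2, Psmb9 and Erap1 in BTYNB, while those of Tapbp and Psmb10 do not. Nlrc5 was at 31.3 and 30.8 CPM there. These are cells of 1 library each, and the bins describe cells, not replicates.

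**Figure D5:**
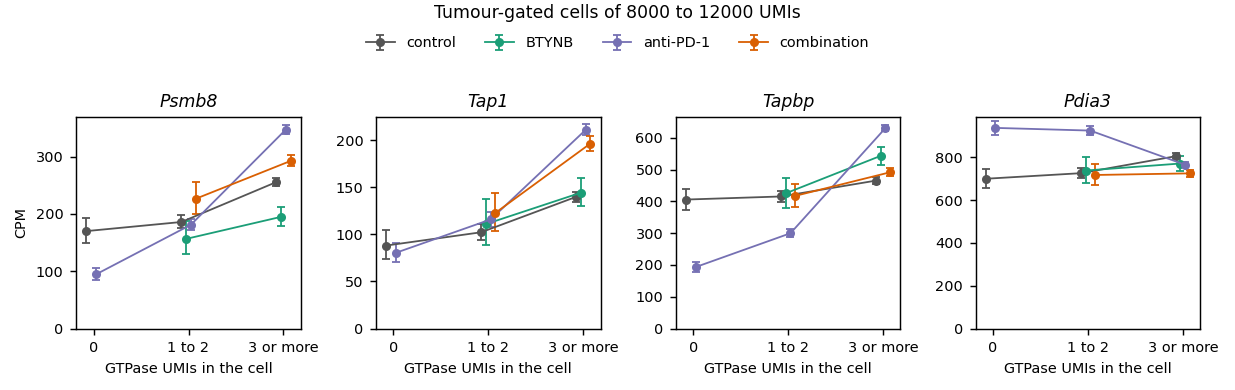
Level in CPM of Psmb8, Tap1, Tapbp and Pdia3 in tumour cells of 8000 to 12000 UMIs, by the UMIs of 7 interferon-inducible GTPase genes in the cell, with 95% Poisson intervals, for bins of at least 50 cells. The anti-PD-1 line climbs from 94.5 to 347 CPM for Psmb8 and falls from 938 to 765 CPM for Pdia3, and the control line climbs from 170 to 256 CPM for Psmb8.

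Proliferating tumour cells (at least 2 UMIs of Mki67 and Top2a) had more Psmb9 than those with 0 in control (0.35), BTYNB (0.47) and combination (0.32), while anti-PD-1 had 0.06. Psmb8 had 0.29, 0.44 and 0.30 in those 3 libraries and -0.03 in anti-PD-1. Tap2 was lower in proliferating cells of all 4 libraries, from -0.41 in anti-PD-1 to -0.17 in combination, and Nlrc5 had ratios from -0.49 to -0.15, of which that in BTYNB (-0.32 to 0.01) has an interval that includes 0. Proliferating cells were deeper (median 20383 against 12983 UMIs in BTYNB). Between 8000 and 12000 UMIs, Nlrc5 was at 0.51 (-0.15 to 1.17) in BTYNB, and at -0.13 in control and -0.17 in combination with intervals that include 0. Psmb5, Psmb6 and Psmb7 summed were higher by 0.28 to 0.31 in the 4 libraries.

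In myeloid cells, BTYNB against control gave the most members called of the 4 comparisons. Psmb10 was at 0.82 (0.61 to 1.06), Nlrc5 and Tap1 at 0.67, Psmb9 at 0.62, Tap2 at 0.61, Psmb8 at 0.37 and Tapbp at 0.33 (0.19 to 0.46). These 7 of 9 members were called higher, where 24.2% of 9247 genes were, and 0 lower, where 26.5% were. Erap1 (-0.03) and Pdia3 (-0.08) were not called. The median over the members was 0.61 against -0.02 over all genes. Tapbp was at 0.295, under the limit, as a mean over cells. B cell markers summed to 474 CPM in these BTYNB cells and 30.9 CPM in control, and T cell markers to 76.9 and 14 CPM, and their part in these ratios was not tested. Control held 292 myeloid cells and 106 Nlrc5 UMIs, so the control levels set the width of these intervals.

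Anti-PD-1 against control gave 5 members called higher in myeloid cells, where 12.3% of 3206 genes were called higher and 19.8% lower. They were Tapbp at 0.77 (0.61 to 0.94), Tap2 at 0.65, Psmb10 at 0.56, Psmb9 at 0.41 and Tap1 at 0.34. Nlrc5 was at -0.09 with an interval from -0.50 to 0.32. Tumour markers of the gate were 292 CPM in these cells and 192 CPM in control myeloid cells, against 2740 and 2030 CPM in tumour cells, and their part in the Tapbp value was not tested. Combination against anti-PD-1 gave higher Nlrc5 (0.61) and Tap1 (0.36) and lower Tapbp (-0.48), that is 2 members higher and 1 lower, where 21.1% and 19.5% of genes were. In cells of 5115 UMIs or more Tap1 was at 0.243, no longer called. Nlrc5 (1.144), Psmb9 (0.455) and Psmb8 (0.417) were then called higher, and Tapbp was at -0.409. Combination against BTYNB gave 0 members higher and 1 lower, Psmb10 at -0.38 (-0.47 to -0.29), where 14.6% and 14.2% of 9308 genes were called, and Tap1, Tapbp, Psmb8, Psmb9 and Pdia3 lay between -0.07 and 0.06. Erap1 was at -0.285, Tap2 at -0.254 and Nlrc5 at -0.143. In cells of 5115 UMIs or more Psmb10 was at -0.244, no longer called, and Erap1 at -0.422, then called lower.

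The same direction was found in C1q macrophages (myeloid cells with at least 5 UMIs of C1qa, C1qb and C1qc), which were most of the control and anti-PD-1 gate. Psmb10 was at 110 CPM in control (242 cells), 201 under BTYNB (1550), 153 under anti-PD-1 (362) and 154 in the combination (920). Tapbp was at 275, 327, 467 and 326 CPM. Nlrc5 was at 60.1, 93.9, 59.1 and 90.6 CPM, so that its higher level went with BTYNB in the presence and in the absence of anti-PD-1.

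Type 1 dendritic cells (at least 2 UMIs of Xcr1 and Clec9a), which present antigen to CD8 T cells on class I molecules, had the highest levels of Psmb8 and Tap1 among the finer gates. Psmb8 was at 666 CPM in the 575 such cells of BTYNB and 652 CPM in the 521 of the combination, against 469 and 424 CPM in C1q macrophages of those libraries. Tap1 was at 559 and 596 CPM against 262 and 251, Psmb9 at 261 and 274 against 124 and 117, and Tap2 at 122 and 124 against 58.4 and 44.7. Psmb10 did not follow: it was at 90.5 and 66.2 CPM in dendritic cells and 201 and 154 CPM in macrophages. Cells of the dendritic gate in anti-PD-1 numbered 54, 11 of which also met the tumour gate, with Psmb8 at 540 CPM and Tap1 at 321 CPM.

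Over the full gates Nlrc5 was also high outside these cells, but the T cells, NK cells and neutrophils of BTYNB were shallow. Mature dendritic cells (at least 3 UMIs of Ccr7 and Fscn1) held 131 CPM in BTYNB and 96.9 CPM in combination, but Fscn1 is also found in tumour cells, and 442 of the 483 cells of this gate in anti-PD-1 met the tumour gate. With at most 2 keratin UMIs, a limit added after the data had been seen, Nlrc5 was at 212 CPM in 532 cells of BTYNB and 179 CPM in 108 of the combination, and Tapbp at 620 and 509 CPM. CD4 T cells of BTYNB, 410 in number, held 181 CPM of Nlrc5, 295 of Tap1 and 98.6 of Tap2, and 1202 CD8 T cells held 156, 196 and 68.1 CPM. Tap1 and Tap2 were thus lower in CD8 than in CD4 T cells by log2 ratios of -0.59 and -0.53, at median depths of 2324 and 2021 UMIs. Neutrophils of BTYNB (548 cells) had 140 CPM of Nlrc5 and 304 CPM of Tap1 and 36.1 CPM of Erap1, and 428 NK cells had 91.1, 192 and 95.2 CPM of these genes. Median depths were 1401.5 UMIs in these neutrophils and 2971.5 in these NK cells. In the whole T gate of BTYNB, Nlrc5 was at 158.6 CPM. It was at 192.2 CPM in cells of 1 gate only and at 78.1 CPM in cells of 5115 UMIs or more. That limit left 42 CD4 T cells and 29 neutrophils, under the minimum of 50, so their Nlrc5 level could not be checked at that depth.

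For lymphocytes the sole comparison with enough cells was combination against BTYNB, and its values turned with depth and purity. In T cells, Psmb9 (0.59) and Pdia3 (0.43) were called higher and Nlrc5 (-0.90), Erap1 (-0.54) and Tap2 (-0.38) lower, that is 2 and 3 of 9 members, where 28.5% and 31.2% of 8118 genes were. In cells of 5115 UMIs or more, Nlrc5 was at 0.11, and 0 members were called. In B cells, Psmb8 (0.52), Psmb9 (0.49), Pdia3 (0.46) and Psmb10 (0.39) were called higher and Nlrc5 (-0.78) lower, 4 and 1 members, where 26.0% and 32.5% of 9897 genes were. In B cells of 1 gate only, Psmb9 was at -0.08 and Psmb10 at -0.06, and in those of 5115 UMIs or more Nlrc5 was at 0.41. No order of the 2 libraries is read from these lymphocyte values.

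Across the 12 combinations of gate and library with at least 50 cells, the genes whose log2 CPM correlated most with the summed Psmb8, Psmb9 and Psmb10 were Cfl1 (Pearson r 0.981), Zbp1 (0.95), Ndufb1 (0.948), Ifitm2 (0.915) and Stard3 (0.914), out of 13941 genes. For the summed Tap1, Tap2 and Tapbp they were M1ap (0.895), Sf3b6 (0.862), Gadd45a (0.832), Isoc2a (0.824) and Dctn1 (0.822). The 12 points share libraries, depth and gate, so these values are descriptions only. Between members, Psmb8 and Psmb10 had r of 0.929 and Erap1 and Nlrc5 of 0.862, while Tap1 and Psmb9, which share the promoter window shown above, had 0.172 and Tapbp and Erap1 -0.851.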

How the data were processed

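Ascites cells of 4 libraries, 1 per group and each pooled from several animals, were captured on a microwell platform (BD Rhapsody). The authors counted UMIs with the vendor's pipeline on build GRCm39 (per the submitters' processing notes) and deposited raw counts per gene and cell. Deposited counts summed to between 78603888 (combination) and 114600397 UMIs (BTYNB) a library. Barcodes shared by pairs of libraries numbered 0 to 4.

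Cells with under 200 genes or over 33% mitochondrial (mt-) UMIs were removed, leaving 7042 (combination) to 18283 (BTYNB) cells a library. No doublet caller was run, and cells in several gates or among the 5% with most UMIs were left out as alternatives. Counts were summed per gate and library and expressed as CPM, with exact Poisson (levels) and binomial (ratios) 95% intervals. Ratios covered genes with at least 100 UMIs in 1 library of the pair. With 1 library per group there was no test. The code was tested on simulated data. Named were all members, pathway genes called in a tumour comparison or used in a ratio, and the 5 genes most like each sum, except 1 pathway gene that is not reported here. Members and lists were chosen with earlier results of these data known. Python 3.11.15, NumPy 2.4.6, SciPy 1.17.1 and pandas 2.3.3 were used.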

Additional observations from a re-analysis of the deposited data

Results flagged for a closer look

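Differences that ran in opposite directions between gates or libraries drew attention, and none of them was tested. The summed Psmb8, Psmb9 and Psmb10 in tumour cells with at least 3 Cd24a UMIs, over those with 0, had a log2 ratio of -0.999 in anti-PD-1 and of 0.602 in control, 0.641 in BTYNB and 0.464 in combination. Cd24a cells were deeper in each library, and BTYNB and combination were not compared at matched depth. For combination against BTYNB, Nlrc5 had a log2 ratio of 0.442 in tumour, -0.900 in T and -0.776 in B cells, of which the lymphocyte values changed sign in cells of 5115 UMIs or more. Psmb10 had 0.391 in B cells and -0.376 in myeloid cells, and the B cell value changed sign in cells of 1 gate only.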

How the results depend on the processing

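Depth and purity limit the lymphocyte gates most, and 1 library per group leaves the spread between animals unmeasured. No paired analysis was possible because each group is 1 library. Values below are log2 ratios of the summed Psmb8, Psmb9 and Psmb10 and counts of the 9 members called, and the cause of a change was not tested. The free-RNA subtraction was not run where its estimate passed 50%, which was so in anti-PD-1 tumour cells (56.3%), combination T cells (59.7%) and B cells of BTYNB (84%) and the combination (95%, the ceiling set for it). The estimate counts all leukocyte marker UMIs in tumour cells, Cd52 among them, and all epithelial marker UMIs in other gates as free RNA. Markers made by the gated cells, or cells in several gates, would raise it, so it is not a measured share of free RNA. The estimate was 23.5% in control and 3.04% in BTYNB tumour cells.

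In tumour cells, BTYNB against control gave a sum of 0.037, 0.011 without the 5% of cells with most UMIs and 0.006 as a mean over cells. Its 1 member called higher became 2 in cells of 1 gate only and 0 under the last pair of settings, at 1.5-fold and in Cd24a-free cells. Anti-PD-1 against control gave 0.318, then 0.348 without the deepest cells, 0.376 as a mean over cells, 0.398 with median-of-ratios scaling and 0.616 in Cd24a-free cells, with 1 member called higher at 1.5-fold and 7 in Cd24a-free cells. Combination against anti-PD-1 gave 0.006, then -0.017, -0.019, -0.063 and -0.252 in the same order of settings, with 0 members called higher at 1.5-fold, and 0 higher and 3 lower in Cd24a-free cells. Combination against BTYNB gave 0.287, then 0.319 without the deepest cells, 0.351 as a mean over cells and 0.340 in Cd24a-free cells, with 0 called higher at 1.5-fold.

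In myeloid cells at the common floor of 5115 UMIs, which left 67 anti-PD-1 cells, the sum was 0.068 for anti-PD-1 against control with 2 members called lower, and 0.280 for combination against anti-PD-1 with 2 lower. The latter also had 2 lower after free-RNA subtraction. At 1.5-fold, 2 members were called higher for anti-PD-1 against control, 1 higher and 0 lower for combination against anti-PD-1, and 0 lower for combination against BTYNB. BTYNB against control kept between 0.487 and 0.559.

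In T cells the sum for combination against BTYNB was 0.002 at the floor, 0.718 in cells of 1 gate, 0.115 with both limits (added after seeing the data), 0.529 without the deepest cells, 0.580 as a mean over cells and 0.203 with median-of-ratios scaling. Members called higher numbered 0, 5, 0, 4, 5 and 1 in that order and 1 at 1.5-fold, and members lower 0 at the floor, 0 with both limits and 1 at 1.5-fold. Nlrc5 turned to 0.113 at the floor and 0.009 with both limits, and Pdia3 to -0.190 and -0.144. In B cells the sum was 0.200, 0.357, -0.463, 0.600, 0.763 and 0.416 in the same order. Members called higher were 1 at the floor, 1 with both limits and 0 at 1.5-fold, and lower 0 at the floor, 2 in cells of 1 gate, 2 with both limits, 3 without the deepest cells and 2 as a mean over cells. With both limits Psmb8 turned to -0.310, Psmb9 to -0.774, Psmb10 to -0.642 and Nlrc5 to 0.410. Psmb9 (-0.080) and Psmb10 (-0.055) had turned in cells of 1 gate, and Nlrc5 (0.496) and Pdia3 (-0.100) at the floor.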
